A study of Mus musculus with 6 samples.

Results

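The locus of Shh, the gene of the signalling protein Sonic hedgehog, was examined together with Lmbr1, the gene at the other end of the same regulatory domain. Its members were these 2 genes of 21701 protein-coding genes and all regions of the 8 peak lists that touched a stretch of 1050 kb on chromosome 5 (mm10), which began 56.8 kb beyond the 3′ end of Shh and ended 71.6 kb beyond the 5′ end of Lmbr1. This gave 66 of 379158 regions. The interval was defined by position and gene names, not by any measured value, though earlier results of these data were known.

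The series held 6 ChIP-seq samples from wild type B6CBAF1 mouse embryos, at embryonic day 12 in the sample titles, with the forelimb cut into a distal piece (DFL) and a proximal piece (PFL). Both pieces were assayed for H3K27ac, an acetylation found at active promoters and enhancers, for H3K27me3, the methylation written by Polycomb complexes, and for CTCF, a zinc finger protein that anchors chromatin loops, with 1 library per mark and piece and with tissue pooled over embryos. Another 2 lists, of the transcription factors HOXA13 and HOXD13 in whole forelimbs labelled E11 in the deposited names, belonged to no sample and differ from the others in stage and tissue. No manipulation was applied to any of these groups. Without replicates no test was possible, and the Wilson 95% intervals below cover counting error only.

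Sonic hedgehog is secreted by a small group of cells at the posterior margin of the limb bud and patterns the digits from thumb to little finger. In the limb its gene is switched on by the ZRS, an enhancer that lies inside an intron of Lmbr1 far away on the same chromosome. Lmbr1 itself encodes a membrane protein and is transcribed in many tissues. CTCF sites at both ends of the domain are known for keeping the gene and the enhancer in contact. Posterior HOX proteins, HAND2 and ETS factors are known to act on the ZRS.

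The sequence that carried HOX13 binding in intron 5 of Lmbr1 is shown first, because it was the only place of the interval where a HOX13 region overlapped a CTCF site. The window of 300 bases was centred on the highest HOXD13 summit and was read from the plus strand of GRCm38 (mm10) at chr5:29315062-29315361. Capitals mark the letters searched for ETS factors (GGAAGT, on the minus strand here, at 29315075 and 29315181) and for an E-box (CATCTG, on the plus strand, at 29315244).
Lmbr1 intron 5: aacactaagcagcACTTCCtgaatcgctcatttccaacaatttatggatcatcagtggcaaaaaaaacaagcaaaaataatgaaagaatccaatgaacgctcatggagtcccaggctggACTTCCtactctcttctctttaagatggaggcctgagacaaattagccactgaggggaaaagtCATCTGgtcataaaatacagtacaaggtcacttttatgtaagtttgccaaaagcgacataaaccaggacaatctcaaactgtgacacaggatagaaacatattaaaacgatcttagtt
The HOX13 words CAATAAA and TCGTAAA were not found in this window on either strand. The ZRS was not placed on these coordinates, since its position was not given in the sources used here.

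A selection of CTCF sites at the ends of the domain and inside it is shown next, because the strand of their motif differed along the interval. Each line gives 39 bases of mm10 around the word that lay nearest to the summit, read on the strand of the word, with the word in capitals (AGGGGGC, or else AGGTGGC, or again AGAGGGC, or finally AGATGGC, searched on both strands).
Shh 3′ flank, plus strand, chr5:28451360-28451398: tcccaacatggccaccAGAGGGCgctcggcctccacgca
Shh 5′ flank, plus strand, chr5:28469955-28469993: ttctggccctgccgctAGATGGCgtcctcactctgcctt
gene desert, minus strand, chr5:29036827-29036865: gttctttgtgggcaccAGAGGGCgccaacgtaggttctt
Lmbr1 intron 4, minus strand, chr5:29336022-29336060: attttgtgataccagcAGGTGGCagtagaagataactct
Lmbr1 5′ flank, plus strand, chr5:29389552-29389590: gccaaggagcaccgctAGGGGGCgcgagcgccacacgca

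The promoter of Lmbr1 is shown because it lay in the H3K27ac region of both pieces, with H3K27me3 next to that region inside intron 1. These are the 250 bases before the RefSeq start on the minus strand, chr5:29378391-29378640 (GRCm38.p6), with CG pairs in capitals.
Lmbr1 promoter: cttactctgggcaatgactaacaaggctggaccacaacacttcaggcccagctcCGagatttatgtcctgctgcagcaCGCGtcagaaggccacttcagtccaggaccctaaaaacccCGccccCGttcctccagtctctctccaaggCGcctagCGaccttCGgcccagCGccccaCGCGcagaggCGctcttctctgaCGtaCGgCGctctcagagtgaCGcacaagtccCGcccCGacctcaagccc
The stretch held 18 CG pairs and 62.0% G and C, against medians of 6 pairs and 52.4% over 32851 RefSeq promoters. Of Shh, Lmbr1 and Rnf32, 2 genes matched the promoter table. Shh was not matched.

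The interval was sparse in all 8 lists. H3K27ac gave 7 regions in DFL and 6 in PFL, which was 6.67 and 5.71 regions per Mb against 22.7 and 26.4 across the autosomes and the X chromosome. H3K27me3 gave 1 region in DFL and 4 in PFL, or 0.952 and 3.81 per Mb against 3.45 and 5.27. CTCF gave the most regions, with 15 sites in DFL (14.3 against 20.8 per Mb) and 12 in PFL (11.4 per Mb, 0.570 times the genome-wide density). HOXA13 gave 11 regions (10.5 per Mb, 0.413 times the genome-wide density) and HOXD13 gave 10 (9.52 per Mb, 0.476 times that density). The plot of folds along the interval shows that the higher H3K27ac folds lay at the Lmbr1 end, with no H3K27ac region on Shh. Regions of PFL H3K27me3, CTCF and HOX13 lay at both ends.

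**Figure D1:**
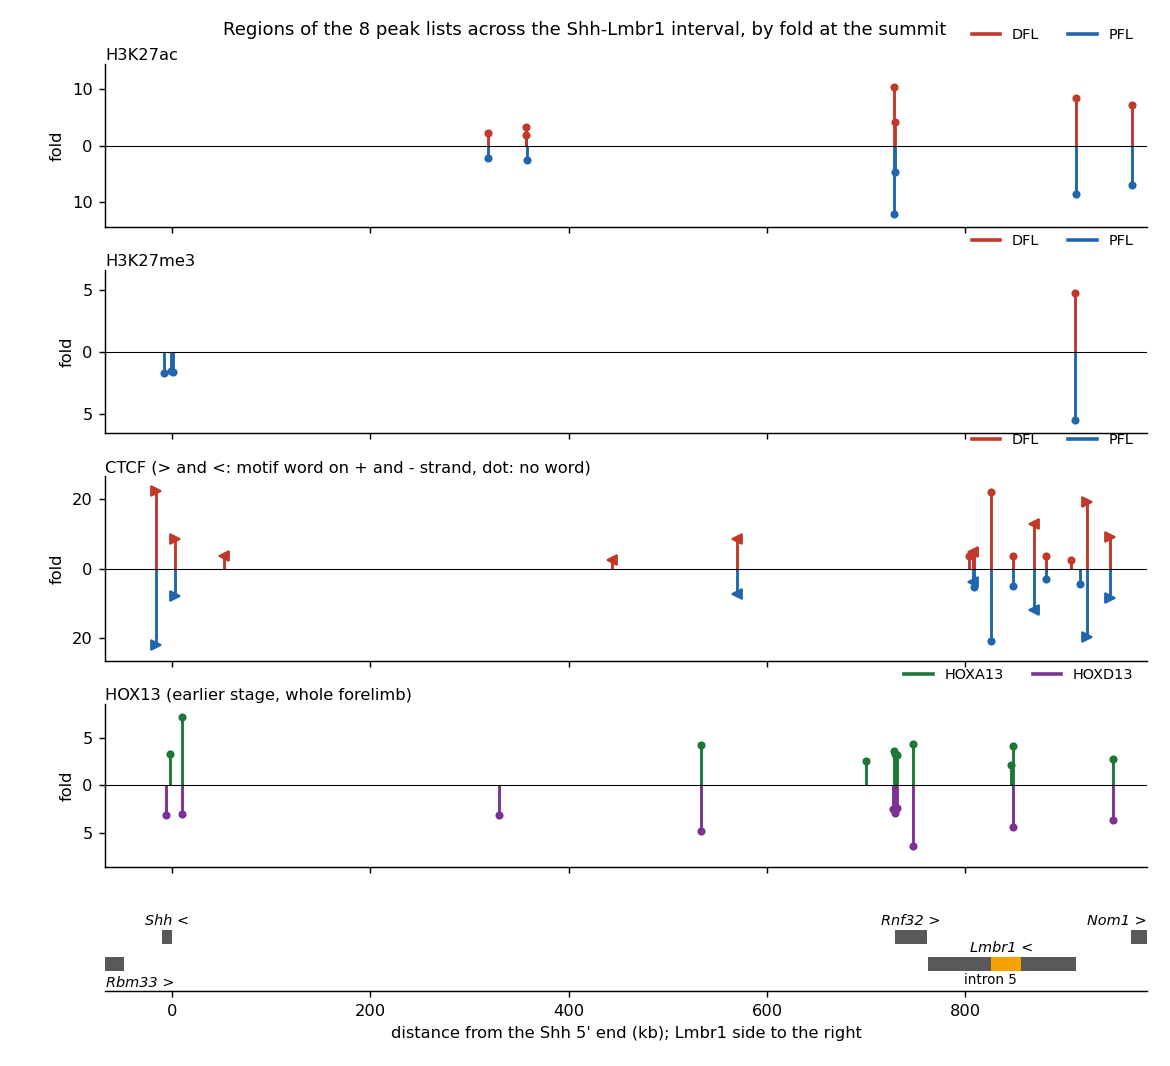
Fold at the highest summit of every region of the 8 peak lists (y axis, DFL or HOXA13 upward and PFL or HOXD13 downward) by distance from the Shh 5′ end in kb (x axis), with the protein-coding genes below, their direction of transcription and intron 5 of Lmbr1 in orange. Arrowheads give the strand of the CTCF word, pointing right for plus, and dots mark sites with none. H3K27ac is missing around Shh, and the highest CTCF folds, 22.2 and 22.1 in DFL, stand beyond the Shh 3′ end and in intron 5 of Lmbr1.

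Shh (ENSMUSG00000002633, chr5:28456815-28467256, minus strand) carried no H3K27ac region in either piece. The nearest one to its 5′ end was 149 kb away in DFL and 115 kb away in PFL, against medians of 0.163 kb and 0.119 kb over 21701 genes. Of these genes, 11.5% were farther from an H3K27ac region in DFL and 12.1% in PFL. The stretch without H3K27ac that held Shh was 468 kb long in DFL and 434 kb in PFL, and 1.22% and 1.04% of all gaps between H3K27ac regions were longer. At the lowest local background the weakest H3K27ac region that was called anywhere had a summit pileup of 25 fragments in DFL and 24 in PFL, so acetylation below that height would not be listed. In bulk tissue, fewer marked cells and less of the mark per cell cannot be told apart, and the Shh cells are a small part of the limb bud.

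H3K27me3 regions were listed on Shh in PFL alone. The 3 PFL regions were in intron 2 (chr5:28458933-28459266, fold 1.68), in intron 1 (chr5:28465827-28466150, fold 1.57) and 0.524 kb upstream of the 5′ end at the summit (chr5:28467601-28467841, fold 1.65). The last 2 of them lay within 2 kb of a transcript start of Shh, a promoter state (H3K27me3 in PFL alone) held by 4.01% of all protein-coding genes. Their −log10 q values were 5.16, 3.53 and 3.65. These folds were among the lowest of the PFL list, with ranks 13077, 13477 and 13189 of 13873, but they stood on a high local background.

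The local background, the number of fragments that the peak caller took as the surrounding level in the same library, was 76.2, 79.2 and 63.2 fragments at these 3 regions. Relative to the lowest PFL background, 4.75 fragments, that was a multiple of 16.0, 16.7 and 13.3. The summit pileups were 129, 125 and 105 fragments, or 27.2, 26.3 and 22.1 times that lowest background. The median PFL region had a background of 3.12 times the lowest. A background of at least 13 times the lowest was found at 1381 PFL regions (9.95% of the list) with a median fold of 1.69, and at 620 DFL regions (6.83%) with a median fold of 1.82. The DFL list held no region on Shh and its nearest one was 254 kb from the 5′ end. The DFL library was also the shallower, with a lowest background of 3.06 fragments. Since a region is listed only where it rises above its own surroundings, an empty stretch of the DFL list is no measurement of the mark, and the level of H3K27me3 on Shh could not be compared between the pieces.

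Lmbr1 (ENSMUSG00000010721, chr5:29229802-29378390, minus strand) had an H3K27me3 region of higher fold on a low background in both pieces. In DFL it covered chr5:29377278-29377803 in intron 1, with fold 4.72 and a pileup of 21 on a background of 3.66 fragments. In PFL it covered chr5:29377224-29377893, with fold 5.48 and a pileup of 37 on 5.93 fragments, and it ranked 300 of 13873. Despite its higher fold, this PFL region had a lower pileup than the PFL regions on Shh. The DFL and PFL summits at Lmbr1 were 64 bp apart. Scaled to the lowest background of each library, the pileups were 6.86 in DFL and 7.79 in PFL, a log2 difference of -0.18, which lay inside the central range over all 8261 shared H3K27me3 regions (-0.92 to 0.72, which holds 95% of them). Among all genes, 16.2% had H3K27me3 at the promoter in both pieces.

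**Figure D2:**
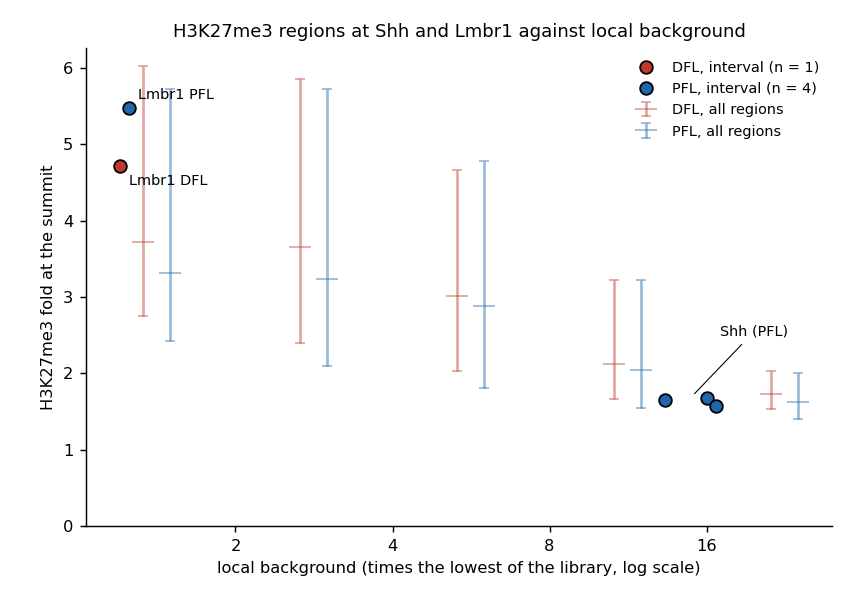
Fold at the summit of H3K27me3 regions (y axis) by local background in multiples of the lowest of the library (x axis, log scale). Filled points are the regions of the interval and bars give the median and the central 95% over all regions of a list in classes of background. The 3 Shh regions of PFL stand at 13.3 to 16.7 times the lowest background with folds of 1.57 to 1.68, and the Lmbr1 regions of both pieces stand below 2 times, with folds of 4.72 and 5.48.

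The 5′ end of Lmbr1 was acetylated in both pieces, as at 58.0% of all promoters. The H3K27ac region was chr5:29377892-29379122 in DFL, with fold 8.41 and a pileup of 152 fragments, and chr5:29377888-29379156 in PFL, with fold 8.58 and a pileup of 175. They ranked 2368 of 59804 and 2099 of 69503. The PFL H3K27me3 region ended just inside the PFL H3K27ac region, while in DFL the 2 marks did not overlap. Both H3K27ac regions reached into intron 1 of the transcript Lmbr1-201. Each held 2 summits, and only the highest summit of a region was placed. In neither piece did the highest summit of an H3K27ac region lie in any of the 16 introns of this transcript.

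Rnf32, a gene of a RING finger protein between the desert and Lmbr1, had the strongest H3K27ac of the interval. Its promoter region was chr5:29195108-29195861 in DFL, with fold 10.4 and a pileup of 250, and chr5:29195150-29195855 in PFL, with fold 12.1 and a pileup of 291. The ranks were 503 and 141. Intron 1 of Rnf32 held another region, with folds of 4.16 and 4.68, and exon 1 of Nom1, a nucleolar protein gene at the border of the interval, held 1 with folds of 7.16 and 6.91. In the gene desert of 725 kb between Shh and Rnf32, H3K27ac was weak. A pair of regions 319 kb from the Shh 5′ end had folds of 2.30 in DFL and 2.25 in PFL. Another pair at 357 kb had 3.31 and 2.56, and next to it stood a DFL region with no PFL counterpart, chr5:28824150-28824387, with fold 1.94, −log10 q of 1.54 and rank 57329 of 59804.

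The pieces differed little in H3K27ac across the interval. The DFL share of the covered length was 49.2%, against 45.3% genome-wide. By number it was 53.8% (Wilson interval 29.1 to 76.8%). Of the 7 DFL regions 6 had a PFL counterpart, where 73.3% of all DFL regions did, and of the 6 PFL regions all 6 had a DFL counterpart, where 61.9% did. Both counts are too small to set apart from these shares. For the 6 matched pairs the log2 ratio of scaled pileups, DFL over PFL, ran from -0.29 at the Rnf32 promoter to 0.42 at the desert region at 357 kb, and was -0.28 at Lmbr1. All lay within the central range over 43801 shared pairs (median -0.16, range -1.26 to 0.83). For H3K27me3 the DFL share of length was 25.1%, against 39.1% genome-wide, and DFL gave 1 of the 5 regions (Wilson interval of this share 3.62 to 62.4%). At a fold of at least 3, which left 1 region in each piece, the share was 44.0% against 42.0%, so its side of the genome-wide share was not stable. The single DFL region had a PFL counterpart (91.0% of all), and 1 of 4 PFL regions had a DFL counterpart (56.0% of all).

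**Figure D3:**
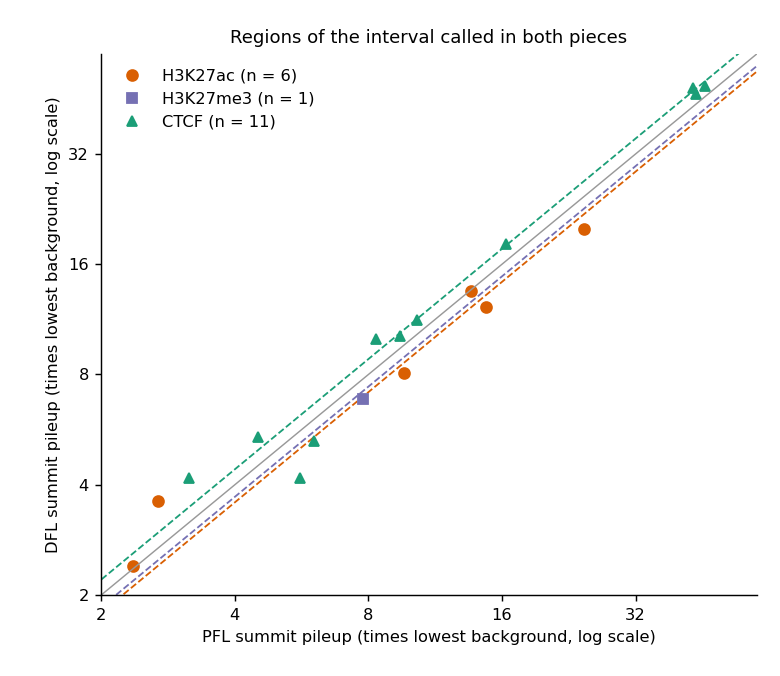
Summit pileup in DFL (y axis) against PFL (x axis) for the regions of the interval called in both pieces, each in multiples of the lowest background of its library on log scales. Dashed lines give the median ratio over all shared regions of a mark and the grey line equality, and the 6 H3K27ac, 1 H3K27me3 and 11 CTCF pairs lie close to them.

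CTCF was the densest signal of the domain, and its highest sites stood beyond the 3′ end of Shh, inside Lmbr1 and upstream of Lmbr1. A site 5423 bp beyond the 3′ end of Shh (chr5:28451161-28451667) had fold 22.2 in DFL and 21.9 in PFL, and ranked 69 of 54673 and 48 of 52801. In intron 5 of Lmbr1 the site chr5:29293143-29293673 had folds of 22.1 and 20.9 with ranks 78 and 130. A site upstream of Lmbr1, within the noncoding RNA gene 4632411P08Rik (chr5:29389280-29389883), had folds of 19.0 and 19.6. A lower site 2.72 kb upstream of Shh (chr5:28469476-28470162) had 8.43 and 7.79. Within Lmbr1 further shared sites lay in intron 4 (12.8 and 11.8), intron 9 (4.70 and 3.95, and 4.61 and 5.23) and intron 3 (3.75 and 2.89), while the desert beyond the site upstream of Shh held 1 further shared site, at 570 kb, with 8.46 and 7.23.

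Nearly all strong CTCF sites were common to both pieces. Of 15 DFL sites 11 had a PFL counterpart (88.7% of all DFL sites do) and of 12 PFL sites 11 had a DFL counterpart (91.8%). The 4 DFL sites without a counterpart had folds of 2.54 to 3.61 and pileups of 18 to 26 fragments, not far above the lowest pileup that was called at the lowest background (16 in DFL and 18 in PFL). The PFL site without a counterpart, chr5:29382820-29383153, had fold 4.33 and a pileup of 35. Among the 11 pairs the log2 ratio of scaled pileups ran from -0.43 at the lower intron 5 site to 0.41 in intron 3, within the range over 48496 shared pairs (-0.48 to 0.71), and was 0.16, 0.10 and 0.09 at the 3 highest sites. The DFL share of covered length was 52.2%, against 50.4% genome-wide.

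A motif word within 50 bp of the summit was found at 9 of the 16 CTCF sites, where 55.8% of all sites had 1. Its strand followed the position. Both sites around Shh had it on the plus strand. All 3 sites farther into the desert and the 2 sites with a word inside Lmbr1, in introns 9 and 4, had it on the minus strand. The 2 sites with a word upstream of Lmbr1 had it on the plus strand again. The high intron 5 site held none of the 4 words and a match only to the wider pattern AGNNGGC, so no strand was assigned to it. Among the 3 desert sites, those at 52.0 and 444 kb from the Shh 5′ end were found in DFL alone. They had low folds of 3.61 and 2.54, with pileups of 26 and 18 fragments.

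Intron 5 of Lmbr1 (chr5:29292950-29323801, 30852 bp, its nearer end 826 kb from the Shh 5′ end) was the intron with HOX13 binding. Both factors had a region at 848 kb from Shh. The HOXA13 region, chr5:29314941-29315667, had fold 4.12 and a pileup of 38, and the HOXD13 region, chr5:29314785-29315591, had fold 4.33 and a pileup of 48. They ranked 24567 of 66761 and 16156 of 52660, and their summits were at 29315199 and 29315212. A weaker HOXA13 region, chr5:29313420-29313779 with fold 2.20, lay beside them at rank 66042. No other intron of Lmbr1 held a HOX13 region.

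The HOX13 site of intron 5 adjoined a lower CTCF site. That site, chr5:29314681-29314922 in DFL and chr5:29314647-29314945 in PFL, had folds of 3.75 and 5.05, overlapped the HOXD13 region in both pieces and had no CTCF word. The 300 bases printed above start to its right and hold 2 ETS words and 1 E-box word. No H3K27ac or H3K27me3 region of either piece lay in intron 5. Between the HOXD13 region and the nearest H3K27ac region lay 62301 bp (DFL) or 62297 bp (PFL), and to the nearest H3K27me3 region 61687 bp or 61633 bp, all at the Lmbr1 5′ end.

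**Figure D4:**
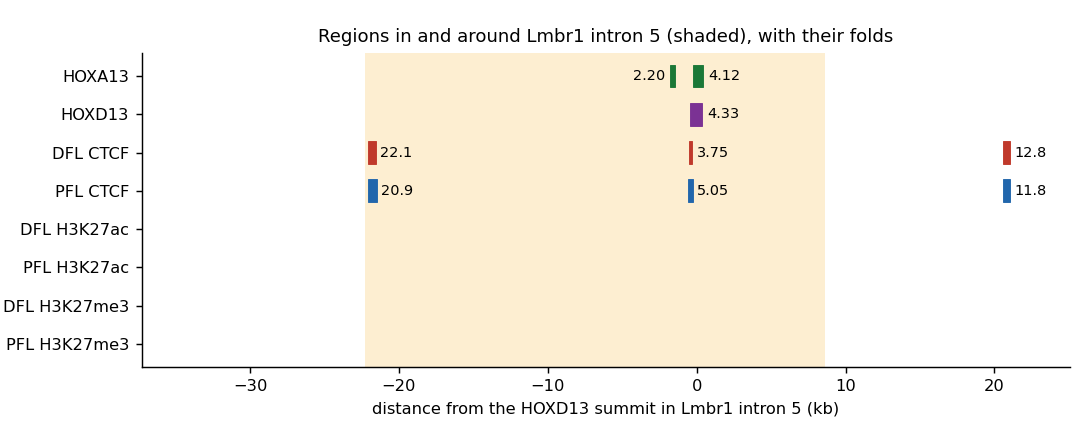
Regions of the 8 lists in and around intron 5 of Lmbr1 (shaded), drawn to scale by distance from the HOXD13 summit in kb, with the fold beside each. Both HOX13 regions and the lower CTCF site (3.75 in DFL and 5.05 in PFL) meet at 0, the high CTCF site (22.1 and 20.9) stands near the intron's other end, and the rows of H3K27ac and H3K27me3 are empty.

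Elsewhere the HOX13 factors bound near Shh, in the desert and at Rnf32. The highest HOXA13 fold of the interval, 7.18, lay at chr5:28476934-28477383, 9.90 kb upstream of Shh in the noncoding RNA gene Gm26894, where HOXD13 had 2.99. Within Shh, HOXA13 had a region in intron 1 (chr5:28465316-28465727, fold 3.33) and HOXD13 another in intron 2 (chr5:28460574-28460881, fold 3.10), which were 4435 bp apart. The highest HOXD13 fold, 6.43, was in intron 8 of Rnf32 (chr5:29213933-29214218), with 4.36 for HOXA13. In the desert both factors met at 533 kb from Shh, with 4.22 for HOXA13 and 4.82 for HOXD13.

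HOXA13 and HOXD13 shared 7 regions of the interval, 63.6% of the 11 HOXA13 regions (62.0% genome-wide) and 70.0% of the 10 HOXD13 regions (80.8% genome-wide). Merged over both factors, 14 regions remained. Of these, 2 overlapped H3K27ac in DFL (28.3% of all HOX13 regions do) and 2 in PFL (26.8%), all at the promoter and intron 1 of Rnf32, with a Wilson interval of 4.01 to 39.9%. CTCF was overlapped by 1 in each piece (8.93% of all for DFL and 8.70% for PFL), the site of intron 5. None of the 14 overlapped H3K27me3 in either piece (Wilson interval 0 to 21.5%), where 1.22% of all HOX13 regions did in DFL and 2.35% in PFL, although the HOXA13 region in Shh intron 1 was 100 bp from a PFL H3K27me3 region. The word CAATAAA was in 2 of 11 HOXA13 windows of 300 bases and in 2 of 10 HOXD13 windows (21.4% and 21.3% of all), and TCGTAAA in none (3.83% and 3.12% of all). GGAAGT was in 4 and 5 windows (18.3% of all in both lists) and CATCTG in 4 and 5 (24.7% of all). A match is a description of letters and not a binding site.

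The other Hedgehog genes were read from a list of 21. The 3 ligand genes, Shh, Ihh and Dhh, had no H3K27ac at the promoter in either piece, as was so for 37.2% of all genes. Ihh, which acts in growing cartilage, and Dhh, which acts in gonads and nerves, were listed with H3K27me3 in both pieces (16.2% of all genes). Shh was listed with it in PFL alone, which is no measure of its level in DFL. All 5 effector genes had H3K27ac in both pieces (58.0% of all genes). These were Gli1, Gli2 and Gli3, the transcription factors of the pathway, Sufu, their inhibitor, and Kif7, a cilium protein. So did 7 of 8 receptor and co-receptor genes, among them Ptch1, the receptor, Smo, the transducer, and Hhip, a ligand trap, with Lrp2 the exception. Of the 5 genes for ligand release, Hhat, Disp1 and Scube3 had it in both pieces and Scube1 and Scube2 in PFL alone.

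Over the whole list, 15 of 21 promoters had H3K27ac in both pieces (58.0% of all genes) and 2 in PFL alone (3.59% of all). H3K27me3 was at 7 of 21 in both pieces (Ihh, Dhh, Scube1, Scube2, Scube3, Hhip and Lrp2), beside 16.2% of all genes. Gli1, like Shh, was listed with it in PFL alone, as were 4.01% of all genes. Of these 21 promoters, 11 had a HOXA13 region (31.7% of all genes) and 9 a HOXD13 region (28.7% of all genes). Among 12 genes of factors reported to act on the ZRS, all 12 had H3K27ac in both pieces. They are Hand2, Hoxa13, Hoxd9 to Hoxd13, Etv4, Etv5, Ets1, Gabpa and Twist1. Etv4 was listed with H3K27me3 in both pieces and Hand2, Hoxd12, Hoxd13, Etv5 and Twist1 in PFL alone.

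Within 10 kb of the 5′ end, Shh was covered by 0 bp of H3K27ac in both pieces, 899 bp of PFL H3K27me3, 687 and 631 bp of CTCF (DFL and PFL), 735 bp of HOXA13 and 552 bp of HOXD13. The gene with the nearest pattern over the 8 lists was H2-K1, with a summed difference of 482 bp, followed by Spaca7 (788), Snap25 (934), Pax3 (973) and Kcnip2 (1043). The sum compares listed lengths only. A stretch without a listed region enters it as 0 bp, so a small sum is no measure of like levels of a mark. Lmbr1 was covered by 1231 and 1269 bp of H3K27ac, 526 and 670 bp of H3K27me3, and 220 and 334 bp of CTCF, and by 0 bp of HOX13. Its nearest genes were Map3k8 (561 bp), Cdk10 (564), Kcna6 (663), Prodh (752) and Gpr65 (823).

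The labelled tissue was checked on promoter acetylation. The limb mesenchyme genes Prrx1 and Tbx5, all 4 distal genes (Hoxa13, Hoxd13, Msx1 and Msx2) and all 3 proximal genes (Meis1, Meis2 and Shox2) had H3K27ac in both pieces (58.0% of all genes). The presence of a listed region at these promoters thus did not separate the distal from the proximal piece, and its height was not compared. Of 5 muscle genes 4 had it in PFL alone (3.59% of all genes), and Pax3 in neither. All 4 endothelial genes had it in both pieces, and 2 of 4 ectoderm genes, Krt5 and Epcam, in DFL alone (1.16% of all genes), with the other 2 in both. Of 3 blood genes Klf1 had it in both pieces, Ptprc in DFL alone and Gata1 in neither. Of 2 hindlimb genes Tbx4 had it in both pieces of these forelimbs and Pitx1 in neither. No brain gene of 4 had it in either piece (37.2% of all genes). The 4 muscle promoters and the H3K27me3 regions on Shh were both listed in PFL alone, and the part of muscle cells in the latter was not tested.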

How the data were processed

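The 8 deposited peak lists were made by the authors from earlier ChIP-seq libraries (per the labels with cutadapt, Bowtie, SAMtools and MACS2 on mm10). The commands given for single-read ChIP (both histone marks and CTCF) and for paired-end ChIP (HOX13) filter on mapping quality and name no input. The highest q-value of the 8 lists was 0.0478 to 0.0500. The deposited values are a fold and the −log10 p and −log10 q of the authors' peak caller. The fold was taken as the ratio of summit pileup to local background with a single fragment added to both. It is therefore lower than the plain ratio, most so where the background is low. Read totals were not given in the lists.

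Lines sharing bases were merged to regions on the autosomes and the X chromosome. Pileup and background were solved from the fold and −log10 p (Poisson tail, whole pileups, tolerance 0.05 of a step), and the lowest background shared by at least 10 regions served as the depth measure: 12.5 and 11.9 fragments for H3K27ac in DFL and PFL, 3.06 and 4.75 for H3K27me3, 6.47 and 7.31 for CTCF, 6.10 for HOXA13 and 7.71 for HOXD13. The solver was tested on simulated data. Counterparts overlapped by at least 1 bp. Promoters were windows of 2 kb around starts of GENCODE vM21 transcripts, for genes with a unique symbol. Per list, the 3 regions with the highest fold, those on Shh, in Lmbr1 intron 5 and at the Shh and Lmbr1 promoters were named, along with the listed pathway, ZRS and marker genes and the 5 genes of the most similar coverage. The result of 1 listed gene is not reported here. The members, gene lists and words were chosen with earlier results of these data known, and sites outside this rule were named after their values were seen. Python 3.11.15 with numpy 2.4.6, scipy 1.17.1, pandas 2.3.3 and matplotlib 3.10.9 was used. Alternatives were stricter thresholds, other windows, other overlaps and lists of equal length.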

Additional observations from a re-analysis of the deposited data

How the results depend on the processing

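Of 38 alternatives to 15 results, 33 stayed within a set limit, and 4 of these crossed 50%. For counts the limit was 1.5 times the main count. For shares of length it was the Wilson interval of the share by number of regions. These intervals were wide (29.1 to 76.8% for H3K27ac, 3.62 to 62.4% for H3K27me3, 37.3 to 72.4% for CTCF). Staying inside them therefore says little about how stable the shares were. The DFL share of H3K27ac length, 49.2%, lay so close to equality that its side of 50% turned to 52.5% at −log10 q of at least 5 and at a fold of at least 3, to 50.4% with lists of equal length and to 53.8% for numbers of regions. The number of lists with a region at the Shh promoter, 2, became 1 within 1 kb (PFL H3K27me3), 4 within 5 kb, and 1 at −log10 q of at least 5 (HOXA13), where 1 of the 3 PFL H3K27me3 regions on Shh remained. With HOXA13 regions that overlap HOXD13, HOX13 overlap with H3K27ac went from 2 to 1 in both pieces. The DFL share of H3K27me3 length, 25.1%, was 44.0% at a fold of at least 3, with 1 region left in each piece. At Lmbr1 the count of 4 lists was the same within 1 kb and at −log10 q of at least 5.

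No paired analysis was possible because every mark and piece had 1 library, which also left no replicate to leave out. The H3K27me3 pair was the shallowest and most unequal, which limits what its missing DFL regions on Shh can show.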
